A study of Homo sapiens with 6 samples.

Results

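The genes described here were the 246 protein-coding genes of human chromosome 19 whose symbol is ZNF followed by a number. The rule used name and position and no measured value. They made up 246 of the 1436 coding genes of the chromosome and of the 19820 coding genes annotated in all. The other 1190 coding genes of chromosome 19 served as the comparison, called other genes below, and 262 ZNF genes on other chromosomes were used for a few side-by-side values. HL-60, an established cell line from a human acute myeloid leukaemia, was mock-treated or exposed for 2 h to 2 µM Ara-C, the nucleoside analogue cytosine arabinoside, or to 1 µM of the anthracycline daunorubicin (DNR). Chromatin carrying SUMO-2/3, small ubiquitin-related modifiers attached to proteins, was immunoprecipitated and sequenced (ChIP-seq). Each library was prepared from the pooled material of 3 biological replicates, which left 1 library and 1 peak list per condition. Differences between conditions therefore compare 3 libraries with no replicate check and carry no p-value. The lists held positions only, with no height or read number, and depth was unknown from them. Chromosome 19 held 1125 peaks in the mock list, 1623 in the Ara-C list and 792 in the DNR list.

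Most ZNF genes of chromosome 19 encode C2H2 zinc finger proteins, in which a run of small zinc-binding fingers reads the DNA sequence. Many carry a KRAB domain that recruits TRIM28 (KAP1), and TRIM28 in turn brings in the histone methyltransferase SETDB1 and HP1 proteins, with SUMO attached to TRIM28 taking part in that recruitment. The genes lie in tandem clusters, and a single long last exon usually codes for the whole finger array, so that neighbouring genes resemble each other in sequence.

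The deduced proteins bore out the names. At least 1 C2H2 finger pattern was found in 245 of the 246 ZNF genes, against 42 of the 1190 other genes. The exception was ZNF274, whose annotated transcript has an interrupted reading frame on this assembly, so its fingers were not counted. A ZNF gene had a median of 13 finger patterns and at most 39, and 3084 of all 3147 patterns (98.0%) were coded by the last exon. A strict KRAB-like pattern, which starts at a tryptophan, was present in 174 of the 246 and misses known KRAB genes such as ZNF224. Without the tryptophan it was present in 191. Their last exons had a median length of 3301 bp, against 745.5 bp in other genes, and 41.2% of the last-exon bases were coding. Median gene length was 20895 bp against 12013 bp. With members at most 500 kb apart and at least 4 to a cluster, 232 ZNF genes fell into 10 clusters, which also held 100 other coding genes, and 14 lay outside them.

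Sequences are given first for last-exon peaks that recurred. In 5 ZNF genes, last-exon peaks of 2 or 3 lists overlapped over coding sequence. The stretch shared by the overlapping peaks, cut to its central 150 bases where it was longer, is given on the coding strand in hg19. Capitals mark exact in-frame codons for the residues H-T-G-E-K-P at the conserved linker between adjacent fingers. Variant linkers were neither marked nor counted. The ZNF180 stretch was shared by all 3 lists and lies on the minus strand at chr19:44980851-44981000. That of ZNF557 was shared by the mock and Ara-C lists and lies on the plus strand at chr19:7083201-7083350, and that of ZNF709 was shared by the same lists on the minus strand at chr19:12576301-12576400. The stretches of ZNF792 at chr19:35450201-35450350 and ZNF260 at chr19:37004905-37005050 were shared by the Ara-C and DNR lists and lie on the minus strand.
ZNF180: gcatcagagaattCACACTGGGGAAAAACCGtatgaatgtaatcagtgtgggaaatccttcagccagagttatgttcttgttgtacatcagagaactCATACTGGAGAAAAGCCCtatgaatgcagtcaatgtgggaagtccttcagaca
ZNF557: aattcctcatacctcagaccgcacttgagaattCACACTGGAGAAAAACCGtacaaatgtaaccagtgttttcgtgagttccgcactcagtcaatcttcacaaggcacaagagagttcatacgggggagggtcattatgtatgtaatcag
ZNF709: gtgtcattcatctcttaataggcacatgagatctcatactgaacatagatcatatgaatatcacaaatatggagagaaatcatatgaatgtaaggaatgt
ZNF792: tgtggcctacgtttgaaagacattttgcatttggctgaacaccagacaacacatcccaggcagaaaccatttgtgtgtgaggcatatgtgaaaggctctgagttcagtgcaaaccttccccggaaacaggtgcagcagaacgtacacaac
ZNF260: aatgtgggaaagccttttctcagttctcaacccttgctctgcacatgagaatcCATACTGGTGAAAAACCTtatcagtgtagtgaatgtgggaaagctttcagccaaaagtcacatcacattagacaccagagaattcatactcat

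The ZNF180 stretch held 2 complete exact linker matches of the 11 in its coding sequence. ZNF557 held 1 of 2 and ZNF260 held 1 of 8, while the stretches of ZNF709 and ZNF792 held 0 of 14 and 0 of 1. Their GC content ran from 32% in ZNF709 to 48% in ZNF792.

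At the transcription start site (TSS), a window from 2 kb upstream to 1 kb downstream was searched for peaks. A peak overlapped this window in 40 ZNF genes in the mock list, 16.3% of the 246 with a 95% Wilson interval of 12.2 to 21.4%. All coding genes of the chromosome together had a share of 23.0% in that list, and those of the genome 22.6%. Under Ara-C the count was 55 (22.4%, 17.6 to 28.0%) beside 26.5% on the chromosome and 27.3% over the genome, and under DNR it was 11 (4.47%, 2.51 to 7.83%) beside 8.91% and 6.54%. Other genes had such a peak in 24.4%, 27.3% and 9.83% of cases. The difference, ZNF genes minus other genes, was −8.11 percentage points in the mock list (95% Newcombe interval, −12.9 to −2.47) and −5.36 points in the DNR list (−8.03 to −1.66). The −4.95 points in the Ara-C list were within counting error (−10.4 to 1.17). These intervals treat genes as separate draws, cover counting error only and say nothing of the spread between cultures.

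The deficit at the TSS did not separate ZNF genes from their neighbours. Inside the clusters, 14.7%, 22.4% and 4.74% of the 232 ZNF genes had a TSS-window peak in the mock, Ara-C and DNR lists, against 14.0%, 18.0% and 4.0% of the 100 other coding genes there. The differences were 0.66, 4.41 and 0.74 points, and each interval included 0 (−8.40 to 8.15, −5.54 to 13 and −5.45 to 5.04). Those 100 neighbours were themselves below the 1090 other genes outside the clusters, with differences of −11.3 points in the mock list (−17.4 to −2.81), −10.2 under Ara-C (−17.0 to −1.12) and −6.37 under DNR (−9.49 to −0.29). On other chromosomes, ZNF genes had a TSS-window peak in 24%, 28.2% and 8.40% of cases.

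**Figure D1:**
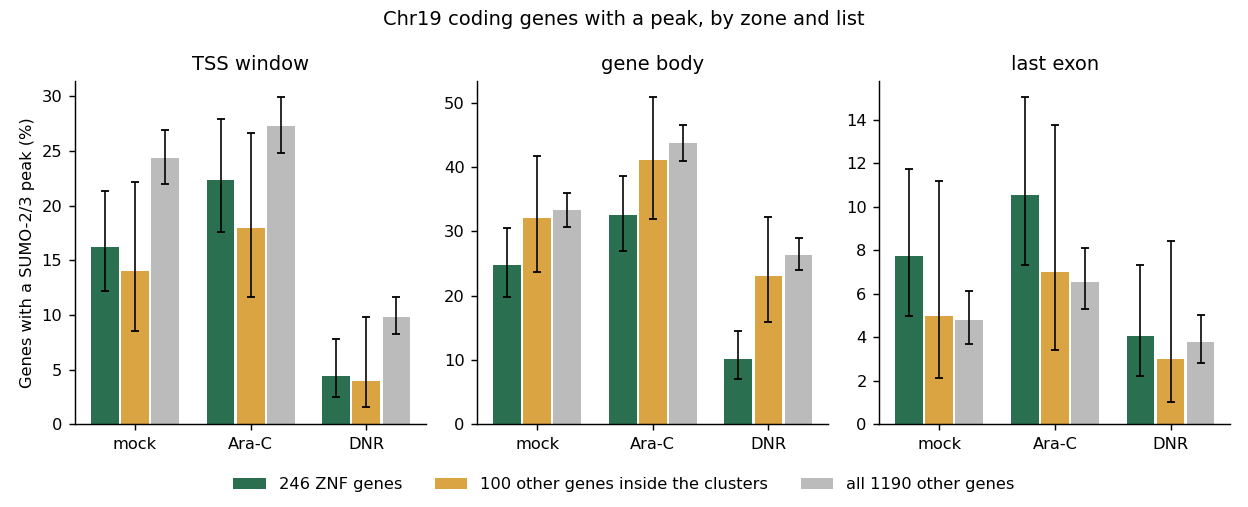
Share of chromosome 19 coding genes with a SUMO-2/3 peak (vertical axes, %, each panel with its own scale) in the TSS window, the gene body and the last exon, for the mock, Ara-C and DNR lists; bars are the 246 ZNF genes, the 100 other genes inside the ZNF clusters and all 1190 other genes, with 95% Wilson intervals. At the TSS the ZNF genes (16.3%, 22.4% and 4.47%) sit beside their cluster neighbours, whereas in the gene body under DNR they are lower (10.2% against 23%).

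Most TSS-window peaks of ZNF genes lay close to the TSS. Their midpoint was within 500 bp of it for 37 of 44 peaks in the mock list, 40 of 62 under Ara-C and 7 of 11 under DNR, and the median distance was 153.5, 263 and 440 bp. The mock midpoints reached 163 per Mb in the 500 bp before the TSS and 146 per Mb in the 500 bp after it, while other genes had 222 and 84.0. Under DNR the same bins held 3 and 4 midpoints, or 24.4 and 32.5 per Mb.

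**Figure D2:**
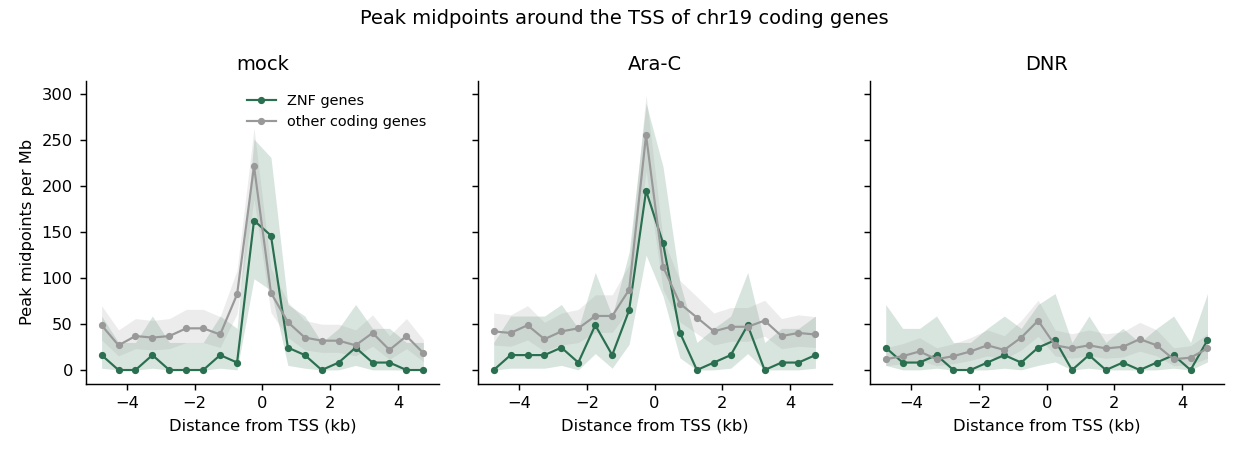
Peak midpoints per Mb (vertical axis) in 500 bp bins from 5 kb upstream to 5 kb downstream of the TSS (horizontal axis, kb) for the ZNF genes (green) and other coding genes (grey) of chromosome 19, 1 panel per list; bands are exact 95% Poisson intervals. ZNF genes rise to 163 and 146 per Mb in the 2 bins beside the TSS in the mock list and stay at 24.4 and 32.5 per Mb there under DNR.

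Relative to the mock list, the number of ZNF genes with a TSS-window peak was 1.38 times as high in the Ara-C list and 0.275 times as high in the DNR list. For other genes the ratios were 1.12 and 0.403. ZNF genes' TSS windows received 3.91% of all chromosome 19 peaks in the mock list, 3.82% in the Ara-C list and 1.39% in the DNR list, with intervals of 2.93 to 5.21, 2.99 to 4.87 and 0.78 to 2.47%. The corresponding shares of other genes' windows were 24.9%, 21.6% and 13%. The DNR list thus held a smaller part of its chromosome 19 peaks at TSSs of either kind than the mock list did.

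The ZNF genes with a TSS-window peak were then followed from list to list. Of the 40 with a mock peak, 18 (45.0%, 30.7 to 60.2%) also had one under Ara-C, where the share over all coding genes of the chromosome was 55.2%, and 3 (7.50%, 2.58 to 19.9%) had one under DNR, beside 15.2%. Both chromosome-wide shares lay inside the intervals of the ZNF genes. Overlap of the peaks themselves was lower still. Of the 44 mock peaks 11 overlapped an Ara-C peak (25%, 14.6 to 39.4%) and 1 overlapped a DNR peak (2.27%, 0.40 to 11.8%). Of the 62 Ara-C peaks 10 overlapped a mock peak, and of the 11 DNR peaks 1 did. At other genes 37.9% of 280 mock TSS-window peaks overlapped an Ara-C peak and 7.14% a DNR peak, while a mock peak was overlapped by 104 of 350 under Ara-C (29.7%) and 19 of 103 under DNR (18.4%). In all, 164 ZNF genes had no TSS-window peak in any list, 22 had one in the mock list alone, 34 under Ara-C alone, 15 in the mock and Ara-C lists, 5 under DNR alone, 3 in the Ara-C and DNR lists and 3 in all 3 lists. The 3 in all lists were 1.22% of the ZNF genes, against 2.51% of all coding genes of the chromosome.

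Those 3 genes were ZNF134, ZNF420 and ZNF628, and their 150 bases upstream of the TSS are given because all 3 lists had a peak nearby. ZNF420, also called APAK, is a KRAB protein known as a repressor of p53 activity. All 3 lie on the plus strand, at chr19:58125460-58125609 for ZNF134, chr19:37569185-37569334 for ZNF420 and chr19:55987834-55987983 for ZNF628 in hg19. Capitals mark matches, on either strand, to the ETS core CCGGAAG and to ACTACANNTCCCAG. The latter is the longest run shared by the printed bases of ZNF420 and ZNF628 with at most 2 mismatches, written N, and was counted over all promoters after it had been seen here.
ZNF134: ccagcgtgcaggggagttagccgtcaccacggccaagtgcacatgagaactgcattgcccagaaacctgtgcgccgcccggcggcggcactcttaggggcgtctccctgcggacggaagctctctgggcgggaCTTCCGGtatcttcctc
ZNF420: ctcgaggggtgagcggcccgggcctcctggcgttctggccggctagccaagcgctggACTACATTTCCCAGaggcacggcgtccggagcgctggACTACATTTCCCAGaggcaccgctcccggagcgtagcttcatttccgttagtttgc
ZNF628: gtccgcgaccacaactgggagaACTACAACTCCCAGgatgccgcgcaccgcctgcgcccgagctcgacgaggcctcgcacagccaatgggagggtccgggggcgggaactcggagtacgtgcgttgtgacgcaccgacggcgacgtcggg

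Of these, the peaks of ZNF134 overlapped in all 3 lists. They lay in the first intron, at 58125901 to 58126100 in the mock list, 58125751 to 58126250 in the Ara-C list and 58125951 to 58126150 in the DNR list, and were 200, 500 and 200 bp wide. At ZNF420 a mock peak upstream of the TSS, at 37569101 to 37569300, overlapped the Ara-C peak at 37569151 to 37569500. The DNR peak of ZNF420 began at 37569501, directly after the Ara-C peak ended, and shared no base with it. The 3 peaks of ZNF628 lay upstream at 259 bp from the TSS in the mock list, 509 bp under Ara-C and 1209 bp under DNR by their midpoints, and none overlapped another.

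In the 300 bp promoters, from 250 bp before the TSS to 50 bp after it, the ETS core occurred in 110 of the 246 ZNF genes (44.7%), in 14.7% of other genes and in 19.8% of all coding genes of the chromosome. Among ZNF genes it was present in 37.8% of the 82 with a TSS-window peak in any list and in 48.2% of the 164 without, a difference of −10.4 points (−22.7 to 2.81). At other genes the shares were 20.2% with a peak and 10.6% without (9.6 points, 5.46 to 13.9). The run ACTACANNTCCCAG occurred in 33 ZNF promoters (13.4%), in 1.51% of other promoters and in 3.55% of all. It was present in 18 of the 82 ZNF genes with a TSS-window peak (22%, 14.4 to 32.1%) and in 15 of the 164 without (9.15%, 5.62 to 14.5%), while at other genes the shares were 1.59% and 1.46%. It was carried by 11 of the 40 ZNF genes with a mock peak, 13 of 55 with an Ara-C peak and 3 of 11 with a DNR peak. The run was picked from promoters of genes with peaks, so these shares are a description. The core consensus of CTCF, an insulator protein, was not matched in any of the 44, 62 and 11 TSS-window peaks of ZNF genes in the mock, Ara-C and DNR lists, and in other genes' windows it was matched in 6 of 280, 7 of 350 and 0 of 103.

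The shortest TSS-window peak of ZNF genes was 150 bp wide in each list, and the median was 200 bp in the mock list and 150 bp in the Ara-C and DNR lists. In other genes' windows and over all peaks of the chromosome the median was 200 bp in each list. Widths of at least 300 bp were reached by 4 of 44, 9 of 62 and 0 of 11 peaks, or 9.09%, 14.5% and 0%, whereas 23.9%, 22.6% and 10.7% of the peaks in other genes' windows and 17.1%, 14.3% and 9.85% of all peaks of the chromosome did so. The difference from other genes was −14.8 points in the mock list (−22.5 to −1.91), and the intervals of the Ara-C and DNR differences included 0 (−16.2 to 3.51 and −18.1 to 15.6). The widest single peak was the 650 bp Ara-C peak of ZNF564, at 12662151 to 12662800, which held a 150 bp mock peak whole and part of another of 200 bp. The next were the Ara-C peaks of ZNF134 (500 bp), ZNF383 and ZNF473 (400 bp each), and ZNF420, ZNF850 and ZNF749 (350 bp each), the last of these named after its value was seen because it tied with the others. ZNF473, which takes part in histone pre-mRNA processing, shares its window with the kinase-family gene VRK3 on the opposite strand. Its mock peak of 350 bp overlapped the Ara-C peak. In the mock list ZNF551 also reached 350 bp, ZNF616 reached 300 bp, and the adjacent ZNF490 and ZNF791 shared 1 peak of 300 bp. Under DNR no width exceeded the 250 bp of ZNF420, followed by 200 bp at ZNF134, ZNF274, ZNF441 and ZNF584.

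Over the gene body, from TSS to transcript end, 61 ZNF genes had a peak in the mock list (24.8%), 80 under Ara-C (32.5%) and 25 under DNR (10.2%). The shares of all coding genes were 31.8%, 41.8% and 23.6% on the chromosome and 43.2%, 53.8% and 32.8% over the genome. The differences from other genes were −8.48 points (−14.2 to −2.16), −11.2 points (−17.4 to −4.48) and −16.2 points (−20.3 to −11.2). Since ZNF genes are longer, the density shows the gap more fully. Merged ZNF gene bodies had 12.5, 18.5 and 6.0 peaks per Mb in the mock, Ara-C and DNR lists, against 23.9, 33.8 and 19.2 in other genes. The ratios were 0.524 (exact 95% interval, 0.402 to 0.674), 0.549 (0.442 to 0.675) and 0.312 (0.212 to 0.444). In the inner body, without the first 1 kb and the last exon, peak midpoints fell at 4.14, 9.89 and 4.14 per Mb in ZNF genes and at 19.2, 28.0 and 18.1 in other genes.

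Unlike at the TSS, the gene-body difference under DNR was present inside the clusters, where 9.91% of ZNF genes and 23% of their neighbours had a peak (difference −13.1 points, −22.8 to −4.62). The mock and Ara-C differences there, −9.59 and −9.10 points, had intervals reaching 0.56 and 1.96. The number of ZNF genes with a gene-body peak under DNR was 0.410 times that in the mock list, and for other genes it was 0.793 times. Of the 61 ZNF genes with a mock peak in the body, 32 (52.5%) had one again under Ara-C and 10 (16.4%) under DNR, beside 68.1% and 38.9% of all such coding genes of the chromosome. The most peaks in 1 ZNF gene body were 3 in ZNF564 in the mock list, 4 each in ZNF792 and ZNF274 under Ara-C and 3 in ZNF536 under DNR. ZNF536 is a neuronal repressor gene without a KRAB-like pattern, and its DNR peaks lay 10234, 13459 and 176184 bp from the TSS and overlapped no peak of the other lists.

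ZNF genes with the strict KRAB-like pattern were set beside the other ZNF genes of the chromosome. The split partly follows position. Of the 72 without the strict pattern, 21 lay in the cluster from ZNF575 to ZNF180, which held 2 with it. The looser pattern was present in 19 of the 23 ZNF genes of that cluster. Outside that cluster either pattern was present in the same number, 172 of 223. The 72 thus include genes that match the looser pattern. At the TSS, 13.2% of the 174 and 23.6% of the remaining 72 had a mock peak (difference −10.4 points, −22.2 to −0.23), 19% and 30.6% an Ara-C peak (−11.6 points, −24.1 to −0.15) and 3.45% and 6.94% a DNR peak (−3.50 points, −12.0 to 2.03). In the gene body the gap was seen under DNR, with 5.75% against 20.8% (−15.1 points, −26.1 to −6.09), and not beyond counting error in the mock (23% against 29.2%) and Ara-C lists (31.6% against 34.7%). Without that cluster, 172 and 51 genes remained. The DNR gene-body difference was then −19.7 points (−33.3 to −8.74), while the intervals of the TSS-window differences included 0 in the mock list (−10.2 points, −24.1 to 1.04) and under Ara-C (−10.2 points, −24.8 to 2.31). With the looser pattern the TSS-window difference was −14.2 points in the mock list (−27.8 to −2.77) and −11.0 under Ara-C (−25.1 to 1.30), and the DNR gene-body difference was −19.7 points (−32.8 to −9.15). Split by finger number, 18.4% of the 185 genes with 10 or more fingers and 34.4% of the 61 with fewer, ZNF274 among the latter, had an Ara-C peak at the TSS (−16.0 points, −29.5 to −3.70). The last-exon difference between KRAB-like and other ZNF genes had the opposite sign in the mock list, with 8.62% against 5.56% (3.07 points, −5.49 to 9.19), and under Ara-C, with 11.5% against 8.33% (3.16 points, −6.37 to 10.3), both within counting error. Under DNR it was 2.30% against 8.33% (−6.03 points, −14.8 to −0.39), and −5.52 points (−16.3 to 0.38) without the cluster from ZNF575 to ZNF180. The mock and DNR TSS-window differences by finger number, −6.72 and −0.59 points, were within counting error. In the gene body the differences by finger number were −4.09, 4.01 and 2.61 points in the mock, Ara-C and DNR lists. In the last exon they were 5.91, 3.15 and 1.05 points. Each gene-body and last-exon interval included 0.

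In the last exon, where the fingers are coded, 19 ZNF genes had a peak in the mock list (7.72%, 5.0 to 11.7%), 26 under Ara-C (10.6%, 7.32 to 15%) and 10 under DNR (4.07%, 2.22 to 7.32%). All coding genes had shares of 5.29%, 7.24% and 3.83% on the chromosome and 5.66%, 8.26% and 3.93% over the genome, and other genes of the chromosome had 4.79%, 6.55% and 3.78%. The difference was 4.01 points under Ara-C (0.41 to 8.66), 2.93 in the mock list (−0.11 to 7.10) and 0.28 under DNR (−1.94 to 3.67). Which of them passed counting error depended on the counting. With peaks of at least 200 bp the Ara-C difference was 1.08 points (−1.44 to 4.77), and with midpoints inside the exon the mock difference was 3.94 points (0.95 to 8.07). Per Mb of last exon the direction was the opposite. Peak midpoints fell at 24.2, 28.6 and 11 per Mb in ZNF genes and at 34.4, 43.3 and 29.6 in other genes, and the ratios were 0.703 (0.405 to 1.18), 0.659 (0.401 to 1.06) and 0.372 (0.166 to 0.751). Counted by overlap they were 0.567 (0.332 to 0.935), 0.526 (0.327 to 0.821) and 0.355 (0.160 to 0.715). Among last exons of at least 1 kb the difference in shares was 0.027 points in the mock list (−3.94 to 4.67), −0.89 under Ara-C (−5.47 to 4.31) and −2.45 under DNR (−5.70 to 1.40). Between 2 and 4 kb, 7.08% of 113 ZNF genes and 9.36% of 171 other genes had a mock peak, 10.6% and 7.60% an Ara-C peak and 5.31% and 5.26% a DNR peak, and the interval of each difference included 0. From 1 kb to just under 2 kb, 0 of 40 ZNF genes and 31 of 242 other genes (12.8%) had an Ara-C peak (−12.8 points, −17.6 to −3.32). From 4 kb up, 3 of 86 (3.49%) and 7 of 54 (13%) had a DNR peak (−9.47 points, −21.2 to −0.41). In the remaining length classes and lists the interval of the difference included 0. ZNF genes of other chromosomes had last-exon peaks in 13%, 15.6% and 7.25% of cases.

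Within the last exon of ZNF genes, most peaks lay over the coding part by their midpoints. The midpoint was in coding sequence for 15 of 22 peaks in the mock list, 20 of 27 in the Ara-C list and 8 of 10 in the DNR list. No mock or DNR last-exon peak, and 1 under Ara-C, lay in the TSS window of any coding gene. Midpoints fell at 40.0, 53.4 and 21.4 per Mb in the coding part, compared with 13.1, 11.2 and 3.75 per Mb in the untranslated part. The ratio of coding to untranslated density was 3.05 (1.17 to 8.85), 4.75 (1.84 to 14.5) and 5.70 (1.14 to 55.1) in ZNF genes, and 1.06 (0.51 to 2.05), 0.95 (0.49 to 1.73) and 1.69 (0.85 to 3.24) in other genes. Against the inner body, the coding part of the ZNF last exon was 9.67 times as dense in the mock list (4.54 to 20.3), 5.40 times under Ara-C (3.01 to 9.37) and 5.16 times under DNR (1.94 to 12.5). In other genes these ratios were 1.8 (0.95 to 3.12), 1.42 (0.79 to 2.37) and 2.35 (1.33 to 3.87). These ratios rest on midpoints. Counted by overlap they were 9.28, 5.27 and 5.16 in ZNF genes and 2.96, 2.99 and 2.87 in other genes, with overlapping intervals of the gene sets in each list. The DNR ratio of coding to untranslated density in ZNF genes then had an interval that included 1 (3.80, 0.91 to 22.2). Coding density set ZNF genes over other genes at ratios of 1.16 (0.51 to 2.65), 1.34 (0.65 to 2.81) and 0.50 (0.19 to 1.24) by midpoints. By overlap the direction turned in the mock and Ara-C lists, to 0.731 (0.359 to 1.46) and 0.628 (0.341 to 1.13), and the DNR ratio was 0.402 (0.153 to 0.953). In the untranslated part the midpoint ratios were 0.401 (0.150 to 0.917), 0.267 (0.093 to 0.629) and 0.149 (0.017 to 0.591), and those of the inner body were 0.216 (0.127 to 0.346), 0.353 (0.253 to 0.482) and 0.229 (0.134 to 0.367).

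**Figure D3:**
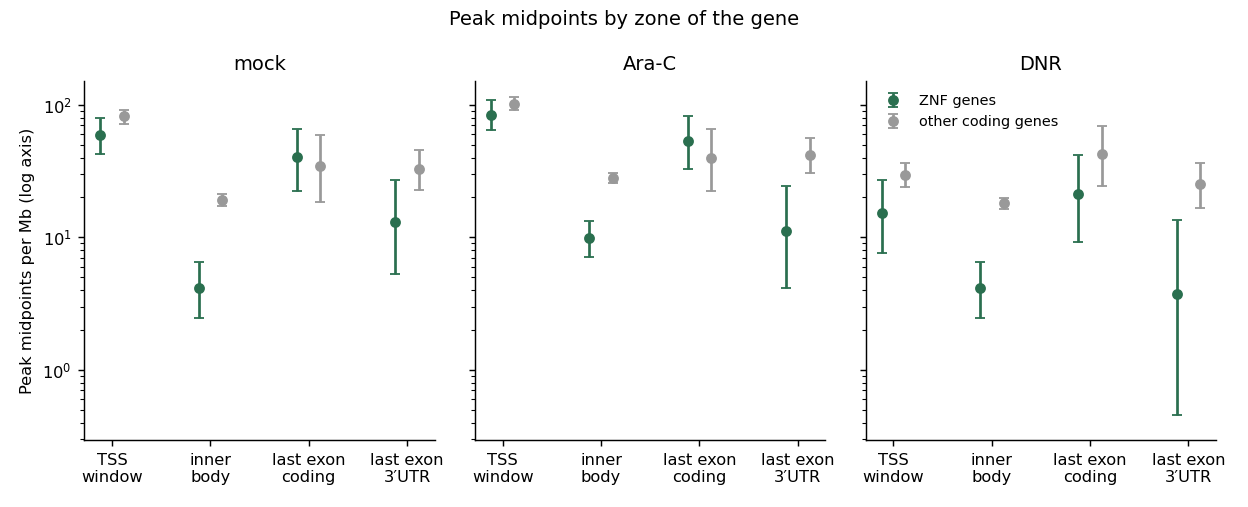
Peak midpoints per Mb (vertical axis, log scale) in the TSS window, the inner body, the coding part of the last exon and its 3′ untranslated part (UTR), for ZNF genes (green) and other coding genes (grey) in the mock, Ara-C and DNR lists; bars are exact 95% Poisson intervals. ZNF genes fall to 4.14, 9.89 and 4.14 per Mb in the inner body and return to 40.0, 53.4 and 21.4 per Mb in last-exon coding sequence, beside 34.5, 39.8 and 42.5 per Mb in other genes.

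The last-exon peaks of ZNF genes had a median GC content of 40.6%, 43.3% and 41.8% in the 3 lists, against 60.3%, 62.0% and 62.7% for those of other genes. Over all last exons, with or without a peak, the coding part had a median GC of 40.8% in ZNF genes and 62.2% in other genes. None of the 22, 27 and 10 last-exon peaks of ZNF genes matched the CTCF core consensus. In other genes 5 of 62, 8 of 82 and 4 of 45 did (8.06%, 9.76% and 8.89%). The 95% intervals of the ZNF shares reached 14.9%, 12.5% and 27.8%, so the counts do not set the gene sets apart. Reads had been kept only where they aligned at 1 place. The median share of 50-base windows found once in the genome was 96.2% in ZNF last exons and 100% in other genes' last exons. It was 95.4% and 95.7% in the TSS windows. Among last exons in which at least 90% of these windows were unique, the ZNF minus other differences were 2.94, 5.09 and 0.86 points in the mock, Ara-C and DNR lists.

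Recurrence in the last exon was limited to 8 ZNF genes with a peak in 2 or more lists, 3.25% beside 2.86% of all coding genes of the chromosome. Of the 19 with a mock peak, 6 (31.6%) had one again under Ara-C and 3 (15.8%) under DNR, where all such coding genes had 36.8% and 14.5%. By peaks, 4 of the 22 mock peaks overlapped an Ara-C peak (18.2%, 7.31 to 38.5%) and 1 overlapped a DNR peak, and 3 of the 10 DNR peaks overlapped an Ara-C peak. At other genes 22 of 62 mock last-exon peaks overlapped an Ara-C peak and 6 a DNR peak, and 6 of 45 DNR peaks overlapped an Ara-C peak.

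ZNF180 encodes 12 fingers in this annotation and lacks the strict KRAB-like pattern. It held the widest last-exon peak of the Ara-C and DNR lists and, after the 500 bp of ZNF557, the widest of the mock list. Mock and DNR peaks with the same ends, 44980701 to 44981150 (450 bp), covered the 3′ part of its finger array. The mock list had a second peak at 44981251 to 44981550 (300 bp), and the Ara-C list had a single run of 1000 bp, 44980701 to 44981700, over both. The sequence printed for ZNF180 is the centre of the common part. At its TSS the mock list had a peak of 250 bp and the Ara-C list 2 of 200 bp, while the DNR list had none.

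The other 7 genes shared peaks in pairs of lists or in none. In ZNF557 the Ara-C peak, 7083201 to 7083350, started at the same base as the 500 bp mock peak and lay within it. In ZNF709 a mock peak at 12576301 to 12576500 and an Ara-C peak at 12576201 to 12576400 overlapped by 100 bp, and a second mock peak lay apart. ZNF260 had identical 150 bp peaks in the Ara-C and DNR lists, 37004901 to 37005050, at the end of its coding sequence. In ZNF792 the DNR peak, 35450201 to 35450350, lay inside a 350 bp Ara-C peak at the start of the exon, and the mock peak lay in the untranslated part. The peaks of ZNF567 (400 bp in the mock list, 150 bp under Ara-C), ZNF283 (150 and 250 bp, both untranslated) and ZNF121 (300 bp in the mock list over coding sequence, 150 bp under DNR in the untranslated part) did not overlap. ZNF180 and ZNF792 were the 2 genes with a last-exon peak in all 3 lists.

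**Figure D4:**
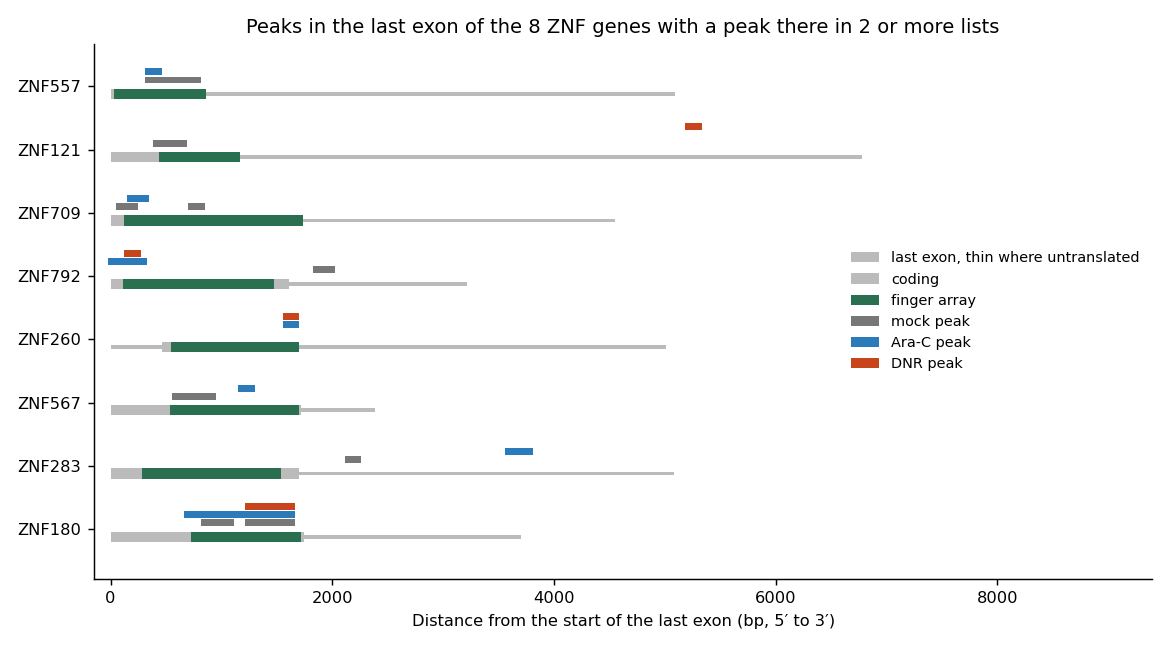
Last exons of the 8 ZNF genes with a peak there in 2 or more lists, drawn 5′ to 3′ from the exon start (horizontal axis, bp), thick grey where coding, green over the finger array and thin where untranslated, with mock, Ara-C and DNR peaks above. Peaks of ZNF180 overlap in all 3 lists between 1214 and 1663 bp, inside the finger array, and those of ZNF283 lie in the untranslated part.

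Among genes with a last-exon peak in 1 list, ZNF564 had mock peaks of 350 and 200 bp, ZNF529 an Ara-C peak of 450 bp and ZNF699, tied with other genes, one of 250 bp, all over coding sequence. The DNR list had 200 bp peaks in the last exons of ZNF420, ZNF628 and ZNF784. Over all ZNF last-exon peaks the median width was 200 bp in the mock list and 150 bp in the others, and the maxima were 500, 1000 and 450 bp.

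Along the chromosome, the 10 clusters held 10.8, 16.8 and 6.62 peaks per Mb of assembled sequence in the mock, Ara-C and DNR lists, and the rest of chromosome 19 held 23.4, 33.3 and 16.8. The ratios were 0.461 (0.387 to 0.547), 0.503 (0.437 to 0.578) and 0.393 (0.314 to 0.488). Unique 50-base windows made up 89.2% of the clusters and 90.2% of the rest. The clusters differed among themselves. The cluster from ZNF101 to ZNF254, beside the centromere, had the lowest density in the mock and Ara-C lists, 2.68 and 6.25 per Mb, and 2.45 under DNR, where only the cluster from ZNF554 to ZNF77, with 0 peaks in 0.125 Mb, was lower. Among its 37 ZNF genes 1, 2 and 0 had a TSS-window peak and 0, 1 and 0 a last-exon peak. The cluster from ZNF575 to ZNF180 was the densest in the mock list at 26.9 per Mb and fell to 11.4 under DNR. The cluster from ZNF264 to ZNF446, with 43 ZNF genes, had 22.5, 31.0 and 10.9 per Mb and the most TSS-window peaks, in 10, 10 and 3 genes. The cluster from ZNF175 to ZNF331, with 39 ZNF genes, had 5.48, 11.4 and 6.97 per Mb and was the single cluster whose DNR density exceeded the mock density.

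**Figure D5:**
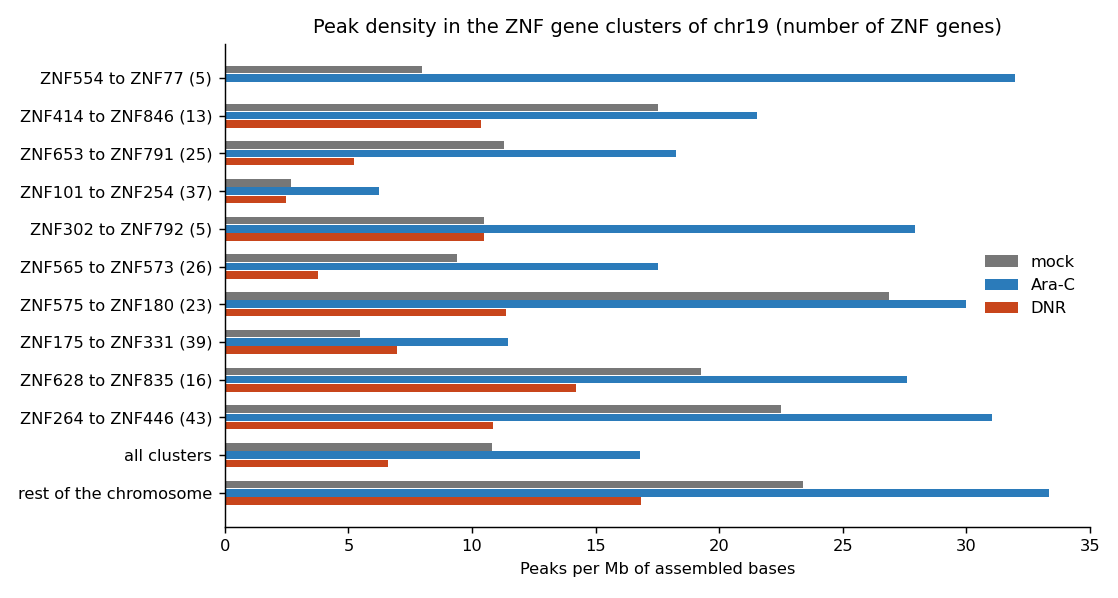
Peaks per Mb of assembled bases (horizontal axis) in each of the 10 ZNF clusters, in all clusters together and in the rest of chromosome 19, for the mock (grey), Ara-C (blue) and DNR (orange) lists; the number of ZNF genes stands in brackets and 1 library underlies each bar. All clusters together reach 10.8, 16.8 and 6.62 per Mb against 23.4, 33.3 and 16.8 in the rest.

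The genes whose products act with KRAB zinc finger proteins were examined as a list of 14, TRIM28, SETDB1, ATF7IP, CBX1, CBX3, CBX5, ADNP, ATRX, DAXX, MORC2, TASOR, MPHOSPH8, PPHLN1 and ZNF274. A TSS-window peak was present at 8 of the 14 in the mock list, 9 under Ara-C and 2 under DNR, where the shares of all coding genes of the genome were 22.6%, 27.3% and 6.54%. TRIM28, at the end of chromosome 19, had no peak in its TSS window, body or last exon in any list. SETDB1, the H3K9 methyltransferase, had TSS-window peaks of 150 bp in the mock list and 250 bp under Ara-C, and ATF7IP, its partner, had a widest peak of 250 and 450 bp. For ADNP, a subunit of a chromatin remodelling complex, the widest TSS-window peak was 500 bp in the mock list and 300 bp in the Ara-C list. ADNP had no TSS-window peak under DNR. The 2 with a DNR peak were MORC2, a component of the HUSH silencing pathway, with widest peaks of 400, 350 and 150 bp, and ZNF274. ZNF274 is itself a KRAB zinc finger protein known to bind the 3′ ends of other ZNF genes. It had 2 TSS-window peaks under Ara-C and 1 under DNR, none in the mock list, and an intronic mock peak at 58708301 to 58708500 that overlapped an Ara-C peak. TASOR in the mock list and ADNP under DNR were the members with a last-exon peak.

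Over all zones and lists, 134 of the 246 ZNF genes (54.5%, 48.2 to 60.6%) had at least 1 peak, compared with 825 of the 1190 other genes (69.3%, 66.6 to 71.9%). A gene without a peak is one where no run of bins met the calling threshold, and the lists do not say how far below it the signal lay.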

How the data were processed

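SUMO-2/3 ChIP-seq peak lists of HL-60 cells were used for the mock, Ara-C and DNR conditions, 1 pooled library each of 3 biological replicates; the 3 input samples were not analysed here. The deposited files hold peak positions only, as chromosome, start and end. Per the labels, the authors aligned reads to hg19 with CASAVA 1.8.2, and per their methods and file names they kept uniquely placed reads, counted them in 50 bp bins, scaled the libraries, subtracted the input and called runs above a fixed value of 32. A change in depth or scaling would therefore move the number of peaks. The lists were not processed with the same settings. Read extension was 210 bp for the mock and Ara-C lists and 220 bp for the DNR list. A setting named pile was 5 for the mock list and 4 for the treated lists. The effect of these differences on the lists was not tested. Positions are given 1-based.

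Genes came from GENCODE 44 lifted to GRCh37, with the MANE Select transcript for 242 ZNF and 1124 other genes. Otherwise the Ensembl canonical transcript was taken or, failing that, the longest coding one. A peak was counted in a zone by an overlap of at least 1 bp. Densities of parts of a gene used peak midpoints, because overlap counts favour short zones. Shares have 95% Wilson intervals, differences Newcombe intervals and rates exact Poisson or conditional intervals. Overlaps were checked against bedtools 2.31.1, and counts and intervals were tested on simulated data. Finger and KRAB-like patterns were read from the translated transcripts. The 50-base windows of chromosome 19 were counted over both strands of the whole genome, without the mitochondrial sequence. Python 3.11.15, scipy 1.17.1 and pysam 0.24.0 were used. Genes named were those with a TSS-window peak in 3 lists, a last-exon peak in at least 2, the 5 widest peaks per list and zone, the most gene-body peaks, and the co-repressor list. The genes, lists and tests were chosen with earlier results of these data known. There were 0 columns of other samples.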

Additional observations from a re-analysis of the deposited data

How the results depend on the processing

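Over the 45 results recomputed (TSS-window and last-exon differences, those by KRAB-like pattern, gene-body and last-exon density ratios and shares of peaks found again), 106 of 120 alternative values stayed within the main 95% interval and 14 did not. Among the 102 alternative values of the differences and ratios, 12 changed direction, 12 intervals came to include no difference and 13 came to exclude it. With only the 100 other genes inside the clusters as the comparison, the TSS-window difference became 2.26 points in the mock list, 4.36 under Ara-C and 0.47 under DNR. ZNF genes of the other autosomes and X differed from other genes there by 1.44 points in the mock list, 0.82 under Ara-C and 2.05 under DNR at the TSS, and in the last exon by 7.38 points in the mock list and 3.35 under DNR (0.78 to 7.16). Among last exons of at least 1 kb the last-exon difference was 0.027 points in the mock list, −0.89 under Ara-C and −2.45 under DNR. Without the first 1 kb and the last exon, the gene-body ratio was 0.233 in the mock list and 0.356 under Ara-C. Counting by overlap in place of midpoints, chosen after seeing the data, turned the Ara-C ratio of ZNF to other genes in last-exon coding sequence to 0.628, the mock ratio to 0.731 and the Ara-C ratio of coding to untranslated density in other genes to 1.63 (1.02 to 2.55), and raised the Ara-C ratio of coding to inner-body density in other genes to 2.99. Counting peaks within 500 bp as found again raised the share of TSS-window peaks to 40.9% for mock peaks in the Ara-C list and 27.4% for Ara-C peaks in the mock list. The share differences and gene-body ratios stayed inside their main intervals with every coding TSS, narrower windows, midpoints, peaks of at least 200 bp, unique last exons, others without zinc finger names and, chosen after seeing the data, others without a finger pattern. Some of these still changed whether 0 was included. The mock TSS-window difference became −4.65 points (−9.34 to 0.89) with 1 kb on either side. The Ara-C one became −7.26 (−12.8 to −1.03) with every coding TSS and −7.47 (−11.7 to −2.31) with peaks of at least 200 bp, a filter under which the Ara-C last-exon difference was 1.08 (−1.44 to 4.77). The mock last-exon difference excluded 0 with midpoints (3.94, 0.95 to 8.07), in the coding part (3.47, 1.07 to 7.10) and outside every TSS window (3.31, 0.22 to 7.53). A looser KRAB-like pattern and leaving out the cluster of ZNF180, both chosen after seeing the data, turned 1 of 18 differences by pattern, the Ara-C last-exon one with the looser pattern (−0.44 points), and their intervals came to include 0 in 4. No paired analysis was possible because the 3 conditions share at most 1 replicate number and rest on single pooled libraries, so no replicate could be left out. Depth is unknown, so a missing peak cannot be told apart from too few reads.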
